A study of Homo sapiens with 4 samples.

Results

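Chaperone genes were taken by symbol from the gene count table: the HSP families, the DNAJA, DNAJB and DNAJC proteins, TRiC, BAG1 to BAG6 and both heat shock factors. In all, 84 rows matched, and 6 genes of the endoplasmic reticulum were left out, which gave 78 of the 15357 genes listed. Although the set was drawn up as cytosolic, it also holds proteins of other compartments. Examples are mitochondrial proteins (among them HSPD1, HSPE1, HSPA9, DNAJA3, DNAJC19 and DNAJC30) and the endoplasmic reticulum protein HSPA13. Another is HSPB11, which is also known as the ciliary protein IFT25. This list is not complete, and the J proteins were not sorted by compartment.

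Molecular chaperones fold new proteins and refold damaged ones. The cytosolic HSP70 and HSP90 machines work with J proteins, which deliver clients to HSP70 and trigger its ATPase. They also work with nucleotide exchange factors, several BAG proteins among them. The TRiC chaperonin (TCP1 and the CCT subunits) is a double ring that folds actin and tubulin, HSPD1 with HSPE1 forms the chaperonin of the mitochondrial matrix, and heat shock factor 1 (HSF1) is the main activator of the inducible members when proteins unfold. Many tumour cell lines hold these genes at high levels.

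The comparison was between RKO cells, a human colon cancer line, that had been infected with lentivirus to express stably either control shRNA (the vector group, 2 samples) or CHD7 shRNA-2 (the shCHD7_2 group, 2 samples), a hairpin RNA against the chromatin remodeller CHD7. All cells were grown in the same medium with serum, and the labels name no heat or drug treatment. Only one CHD7 hairpin was sequenced, so loss of CHD7 and other effects of that hairpin cannot be told apart, and the labels do not say whether the samples of a group were separate cultures, so the p-values measure the spread between these samples only. Values per sample are CPM, counts scaled to the size of each library after TMM normalization, and levels of different genes are compared as FPKM, which also divides by gene length.

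The samples held 15734666 to 16068642 counts each. CHD7 itself was at 85.4 and 91.0 CPM in the vector samples and 55.5 and 50.1 in the shCHD7_2 samples (log2 fold change -0.74, SE 0.088, adjusted p = 4.2e-06 in edgeR). Of 8 epithelial and colorectal markers, 4 (EPCAM, KRT8, KRT18 and CDX2) were at 1 FPKM or more in every sample. CDH1 and LGALS4 were at 0.07 FPKM or less, and KRT19 and VIL1 were not among the genes listed. The fibroblast, blood and endothelial markers that were listed (2 of 6, 1 of 4 and 2 of 3) summed to at most 0.10 FPKM per list in any sample.

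Most chaperone transcripts did not pass the test for a change after CHD7 knockdown, the abundant HSP90AB1, HSP90AA1 and HSPD1 among them. The genes called were the mitochondrial HSP70 gene HSPA9 and the J protein gene DNAJC19, both of the mitochondrial import motor, and the scarce heat-inducible gene HSPA6, all lower. Of the 78 genes, 72 had enough counts to be tested, and a call needed both an adjusted p below 0.05 in edgeR and a change of 1.5-fold or more. By that rule 3 of the 72 (4.17%) were called, all lower, beside 2.88% of all 11955 genes tested (1.37% lower and 1.51% higher). By adjusted p alone, 10 (13.9%) passed, 7 lower and 3 higher, beside 11.5% of all genes tested (6.54% lower and 4.94% higher). Library totals in place of TMM moved that split to 6 lower and 6 higher. The median log2 fold change of all 72 chaperone genes tested was -0.012, against 0.00056 over all genes tested. Of the 72, 72.2% lay within 0.2 of no change, against 67.6% of all genes tested.

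**Figure D1:**
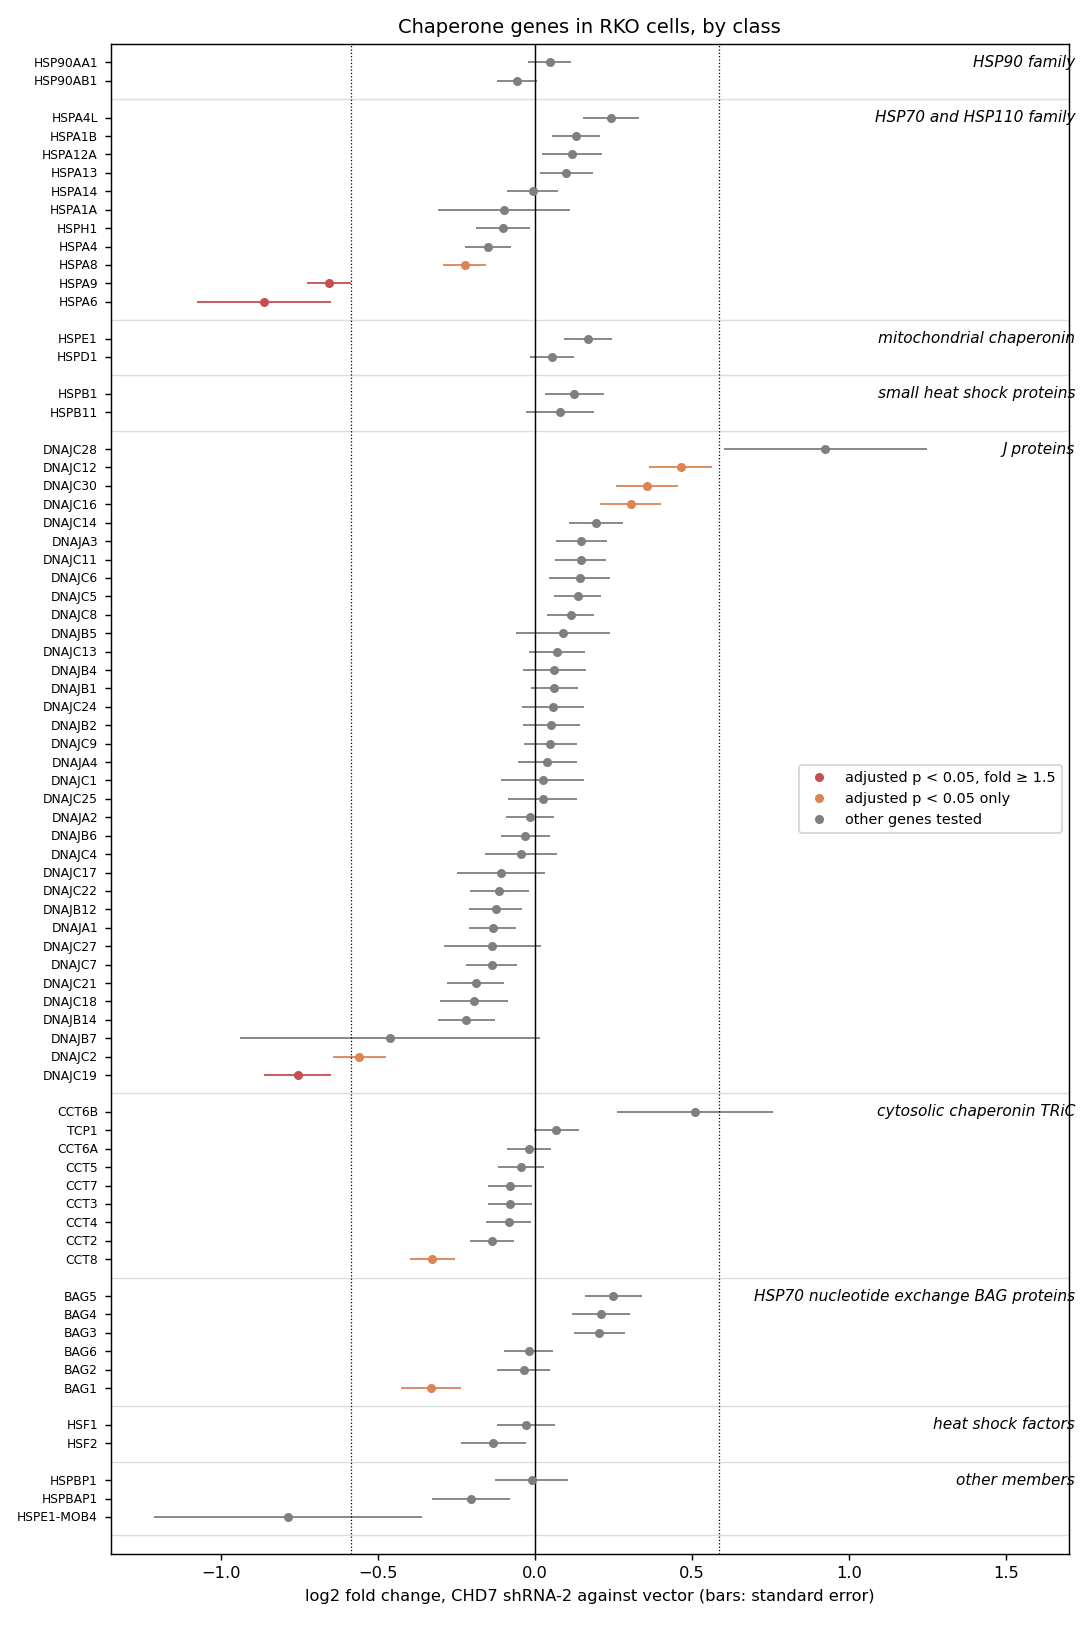
The log2 fold change of each of the 72 chaperone genes tested (x axis; CHD7 shRNA-2 against vector, 2 samples each), grouped by class, with bars for the standard error from edgeR and dotted lines at a fold change of 1.5. Red points (HSPA6, HSPA9, DNAJC19) passed both thresholds, orange points only the adjusted p, and most of the others lie close to 0.

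The 6 genes that were not tested were near absent. HSPA1L had 8 and 6 counts in the vector samples and 12 and 10 in the shCHD7_2 samples, HSPA12B between 1 and 6, DNAJB13 at most 7, and HSPB6 and HSPB9 at most 1, while HSPA2, a testis HSP70, had 0 counts in all 4 samples, which by counting error alone allows up to 3 counts in each. Together the 78 genes took 1.68% and 1.75% of all counts in the vector samples and 1.67% and 1.67% in the shCHD7_2 samples. The 5 genes with the most counts made up 51.6% to 54.0% of that.

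HSPA9 encodes mortalin, the HSP70 of the mitochondrial matrix, which pulls precursor proteins through the inner membrane and assists iron-sulfur cluster assembly. It lies on chromosome 5 of GRCh38 from 138553756 to 138575724 on the minus strand. It had 1455 and 1589 CPM in the vector samples and 983 and 951 CPM in the shCHD7_2 samples. Both knockdown samples were far below both control samples, and the gap was several times the spread within either group. The group means were 1522 ± 94.5 CPM and 967 ± 22.7 CPM (SD, n = 2 each). The log2 fold change by edgeR was -0.65, with a standard error (SE) of 0.070 and an adjusted p of 9.0e-07, which is 1.57-fold lower. HSPA9 was the fifth most abundant of the 78 genes by FPKM, at a mean of 447.9 FPKM in the vector group and 293.4 in the shCHD7_2 group.

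DNAJC19 encodes TIM14, the J protein of the inner-membrane import motor that stimulates HSPA9 at the exit of the channel (chromosome 3, 180983709 to 180989774, minus strand). It was at 30.7 and 30.2 CPM in the vector samples and at 17.0 and 19.1 in the shCHD7_2 samples. The groups did not overlap, as was the case in one direction or the other for 53.7% of all genes tested. The gene was 1.69-fold lower (log2 fold change -0.75, SE 0.11, adjusted p = 3.7e-05). The calls of HSPA9 and DNAJC19 held in each of the 4 fits that left out one sample, with log2 fold changes from -0.72 to -0.59 for HSPA9 and from -0.84 to -0.68 for DNAJC19.

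For the other parts of the same import machine no change passed the test. A list of 11 motor and TIM23 channel genes was written after the values of HSPA9 and DNAJC19 had been seen. Of the 10 that were tested, 0 passed the adjusted p in edgeR, beside 11.5% of all genes tested. In the same fit 0 had an unadjusted p under 0.05 (the lowest was 0.053, for TIMM21). The log2 fold changes of the 10 lay between -0.064 and 0.20. GRPEL1, the nucleotide exchange factor of HSPA9, was at 0.12, TIMM44, which anchors it to the channel, at 0.016, PAM16, the partner of DNAJC19, at 0.034, and DNLZ, an escort that keeps HSPA9 soluble, at -0.064. The matrix chaperonin did not pass either. HSPD1 (HSP60) had 1223 and 1360 CPM in the vector samples and 1350 and 1332 in the shCHD7_2 samples, and HSPE1 (HSP10) had 145 and 148 against 161 and 168. The HSPE1 groups did not overlap, but the adjusted p was 0.16 at a log2 fold change of 0.17.

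**Figure D2:**
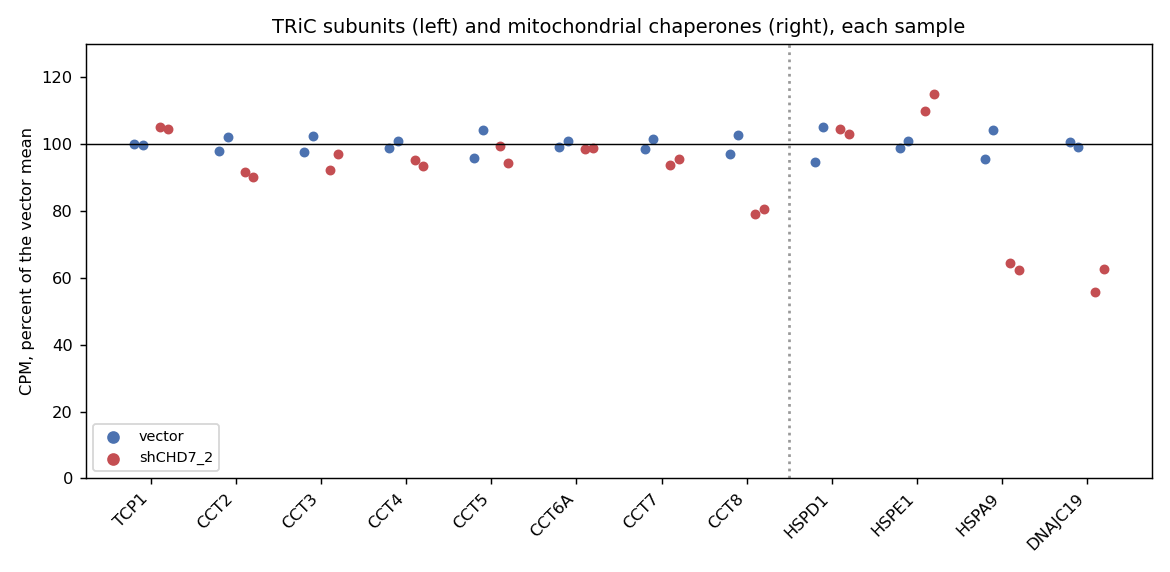
CPM of 8 TRiC subunits and 4 mitochondrial chaperones in each sample, as percent of the mean of the vector group (y axis from 0). CCT8, HSPA9 and DNAJC19 lie well below 100 in both shCHD7_2 samples. In both of these samples CCT2 lies somewhat below 100 and HSPE1 above it. The remaining genes lie close to it.

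Other mitochondrial chaperone and protease genes stood on both sides of zero. DNAJC30, a J protein that binds ATP synthase, had 27.8 and 25.4 CPM in the vector samples and 33.7 and 34.4 in the shCHD7_2 samples (log2 fold change 0.36, SE 0.098, adjusted p = 0.018). It no longer passed without vector replicate 2 (adjusted p = 0.28) or in DESeq2 (adjusted p = 0.10). DNAJA3, the matrix J protein of HSPA9, was at 0.15 (adjusted p = 0.26). Outside the 78 genes, TOMM70, the outer-membrane receptor that takes clients from HSP70 and HSP90, fell by 0.48 on the log2 scale (adjusted p = 3.6e-04), LONP1, the matrix protease, fell by 0.28 (adjusted p = 0.017), and CLPB, a disaggregase of the intermembrane space, rose by 0.32 (adjusted p = 0.023).

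Sequence was examined for the lower genes. The longest annotated 3′ UTR of each gene (GENCODE 29) was searched for the word AGCTATT, for its shifted form GCTATTA and for a further word, GAAGCTA. These words had been picked because genes holding them were lower in these same 4 samples, so the counts are a description and no evidence of their own. HSPA9 was the only one of the 7 lower chaperone genes with an adjusted p under 0.05 to hold such a word. Its 3′ UTR of 2281 bases has the places shown here in the sense of the mRNA, with the word in capitals. The words lie apart, but the windows printed overlap at one end, at chr5:138555499-138555527 and chr5:138555480-138555508, minus strand.
HSPA9 first site: atgggaaacttAGCTATTtatattaggta
HSPA9 second site: atattaggtacAGCTATTaaaacaaggta
In the second site the next base completes GCTATTA as well. Over the 72 genes tested, 11 (15.3%) held a word, against 22.4% of 11691 genes in the test whose 3′ UTR was annotated. Among all genes that were lower with an adjusted p under 0.05, 54.8% held a word. The median 3′ UTR lengths of these sets were 1073, 1361 and 1739 bases, and the shares were not adjusted for length. The other 10 holders, HSPH1, HSPA4, HSPA4L, HSPA14, BAG2 and several J proteins among them, did not pass the adjusted p. DNAJC19, DNAJC2, HSPA6, CCT8, HSPA8 and BAG1 held none. The longest annotated 3′ UTR of a gene, HSPA14 among them, need not belong to the transcript that these cells express.

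By adjusted p, 3 of the 11 HSP70 and HSP110 genes tested were lower (HSPA9, HSPA6 and HSPA8) and 0 were higher, beside 6.54% and 4.94% of all genes tested. HSPA8, the constitutive cytosolic HSP70 known as HSC70, was the second most abundant chaperone transcript. It was at 1777 and 1914 CPM in the vector samples and 1543 and 1620 in the shCHD7_2 samples, so the groups did not overlap. The difference was small (log2 fold change -0.22, SE 0.068, adjusted p = 0.037), and it lost its adjusted p without vector replicate 1 (0.12), without vector replicate 2 (0.53) and with library totals in place of TMM (0.078). The stress-inducible HSPA1B had 268 and 252 CPM against 270 and 300, a log2 fold change of 0.13 (adjusted p = 0.30). HSPA1A (-0.098), whose coding sequence is almost identical, was given only 1.12% to 1.66% of the counts of the pair, so these genes can be read only together. HSPA4 and HSPH1, the HSP110 proteins that exchange nucleotide on HSP70, were at -0.15 and -0.10, and their testis-enriched relative HSPA4L had the highest value of the class, 0.24 (adjusted p = 0.083; 0.012 without shCHD7_2 replicate 2 and 0.038 with library totals).

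HSPA6 encodes HSP70B′, a human HSP70 that is nearly silent until cells meet severe stress. It was rare here, with 88 and 74 counts in the vector samples and 41 and 50 in the shCHD7_2 samples (5.67 and 4.69 against 2.56 and 3.13 CPM). The groups did not overlap. It was 1.82-fold lower (log2 fold change -0.86, SE 0.21, adjusted p = 0.0095), but it did not pass without vector replicate 1 (log2 fold change -0.72, adjusted p = 0.10), in DESeq2 (adjusted p = 0.13) or in edgeR with no minimum on counts.

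Heat shock elements, the binding motif of HSF1, were searched in 300 bases around each gene start (RefSeq, GRCh38.p14; 250 before and 50 after). The motif was taken as 3 units, TTC and GAA in turn, starting with either, with any 2 bases between units. One form is the reverse complement of the other, so both strands were covered. Promoters were found for 69 of the 78 genes and 4 of them (5.80%) held a match, against 0.487% of all 27305 promoters in the table. The matches are shown on the strand of the gene, with the fixed letters in capitals.
HSPA6, chr1:161524458-161524486, plus strand: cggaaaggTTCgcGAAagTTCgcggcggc
HSPA8 near the start, chr11:123062171-123062199, minus strand: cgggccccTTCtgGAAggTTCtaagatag
HSPA8 farther out, chr11:123062346-123062374, minus strand: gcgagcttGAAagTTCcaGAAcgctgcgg
DNAJA1, chr9:33025268-33025296, plus strand: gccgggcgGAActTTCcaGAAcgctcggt
DNAJB6, chr7:157336865-157336893, plus strand: agagccgaGAAccTTCgcGAAggtggggc
HSPA6 and HSPA8 were lower and are described above. DNAJA1, a J protein partner of HSPA8, was at 289 and 316 CPM in the vector samples and 270 and 282 in the shCHD7_2 samples (log2 fold change -0.13, adjusted p = 0.27), and DNAJB6, which holds back polyglutamine aggregation, at 146 and 161 against 150 and 151 (-0.030, adjusted p = 0.85). A match is a description of these letters and not a measured binding site. The search was also strict. Among the heat-inducible HSF1 targets listed below, promoters were found for 20, and only 5 of those held a match. A gene with no match here therefore cannot be taken to lack heat shock elements.

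HSF1 and its targets gave no common shift. HSF1 was at 135 and 112 CPM in the vector samples and 113 and 129 in the shCHD7_2 samples, with overlapping groups (log2 fold change -0.029, adjusted p = 0.88; 0.015 with library totals), and HSF2 was at 35.4 and 36.0 against 35.9 and 29.3 (-0.13, adjusted p = 0.46). Of 22 heat-inducible HSF1 targets listed from textbook knowledge, 20 were tested. The list also holds HSPA8 and HSP90AB1, which are the constitutive forms. The result for HSPA8 depended on the processing, as given above. Among the 20 tested, 3 were lower by adjusted p (HSPA6, HSPA8 and CHORDC1, an HSP90 co-chaperone, at -0.28) and 0 higher. Of all genes tested, 6.54% were lower and 4.94% higher by adjusted p. The median log2 fold change of the 20 targets was 0.051. Other well-known targets did not pass. DNAJB1 (HSP40) was at 191 and 188 against 193 and 203 CPM (0.062, adjusted p = 0.66), HSPB1 (HSP27), which holds unfolded proteins soluble, at 259 and 220 against 231 and 292 (0.13, adjusted p = 0.44; 0.28 and 0.012 without shCHD7_2 replicate 1), and BAG3, which sends damaged proteins to autophagy, at 88.7 and 87.9 against 100.5 and 103.1 (0.20, adjusted p = 0.11; 0.25 and 0.048 with library totals). In BAG3 both knockdown samples were above both control samples, as was the case in one direction or the other for 46 of the 72 genes (63.9%) and for 53.7% of all genes tested.

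The HSP90 genes, which keep kinases and hormone receptors ready for activation, did not pass the test. HSP90AB1, the constitutive form, was the most abundant chaperone transcript at 1076 to 1091 FPKM over the 4 samples. It was at 2788 and 2819 CPM in the vector samples and 2686 and 2708 in the shCHD7_2 samples (log2 fold change -0.056, SE 0.064, adjusted p = 0.64), and HSP90AA1, the inducible form, at 1760 and 1944 against 1906 and 1923 (0.047, SE 0.069, adjusted p = 0.72). Of 40 co-chaperones and folding partners outside the rule, among them CDC37, STIP1, PTGES3 and the prefoldins, 39 were tested. By adjusted p 3 were lower and 1 higher (the genes named above), beside 6.54% and 4.94% of all genes tested. Of the 39, 0 reached the fold threshold, and the median log2 fold change was -0.021.

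**Figure D3:**
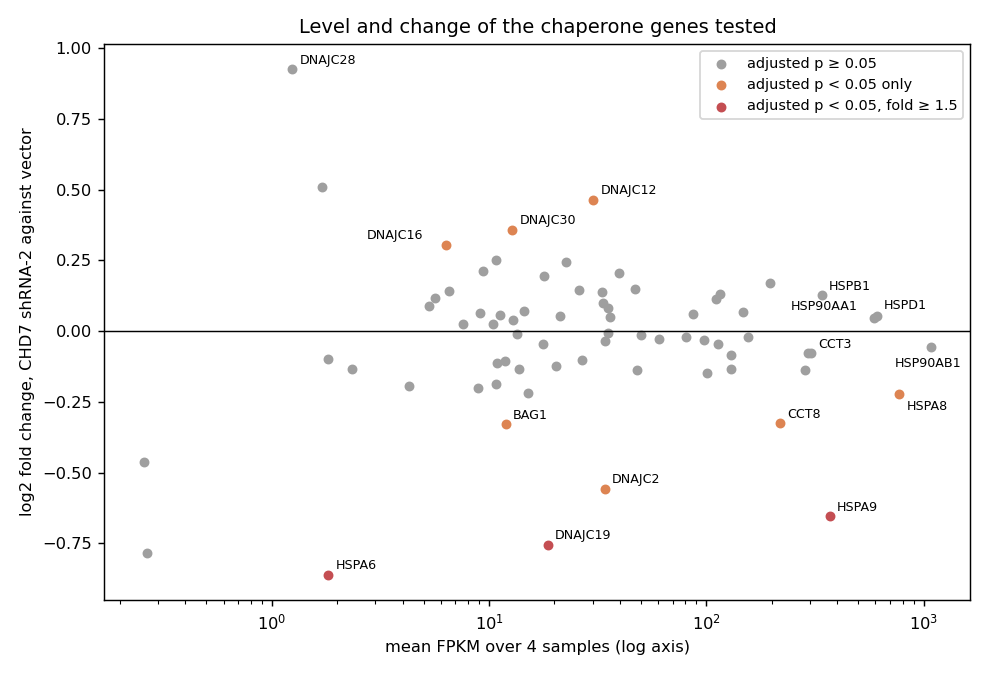
Mean FPKM over the 4 samples (x axis, log scale) and log2 fold change (y axis) of the 72 chaperone genes tested. Most of the abundant genes lie close to 0, HSPA9 stands apart among them, and the widest spread is at under 2 FPKM.

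TRiC is built from equal parts of its subunits. CCT8 alone of the 9 tested genes passed the adjusted p, a share close to the 11.5% of all genes tested. CCT8, the theta subunit, lies on chromosome 21 from 29055805 to 29073797 on the minus strand. It had 435 and 460 CPM in the vector samples and 353 and 360 in the shCHD7_2 samples. That is 1.25-fold lower (log2 fold change -0.33, SE 0.072, adjusted p = 0.0037). CCT8 did not pass in edgeR with no minimum on counts (adjusted p = 0.068). Without vector replicate 2 it was at -0.29 (adjusted p = 0.16). The other abundant subunits lay between -0.14 (CCT2, 522 and 544 against 489 and 481 CPM) and 0.069 (TCP1, 329 and 328 against 346 and 344 CPM), with CCT3, CCT4, CCT5 and CCT7 from -0.083 to -0.045 and CCT6A at -0.019 (0.025 with library totals). In 6 of the 9 genes both knockdown samples were below both control samples, as they were in 34.7% of the 72 chaperone genes and in 27.3% of all genes tested. CCT6B, a testis form of CCT6A, was at under 4 CPM (log2 fold change 0.51, adjusted p = 0.20). The difference between CCT8 and the other subunits was not tested.

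**Figure D4:**
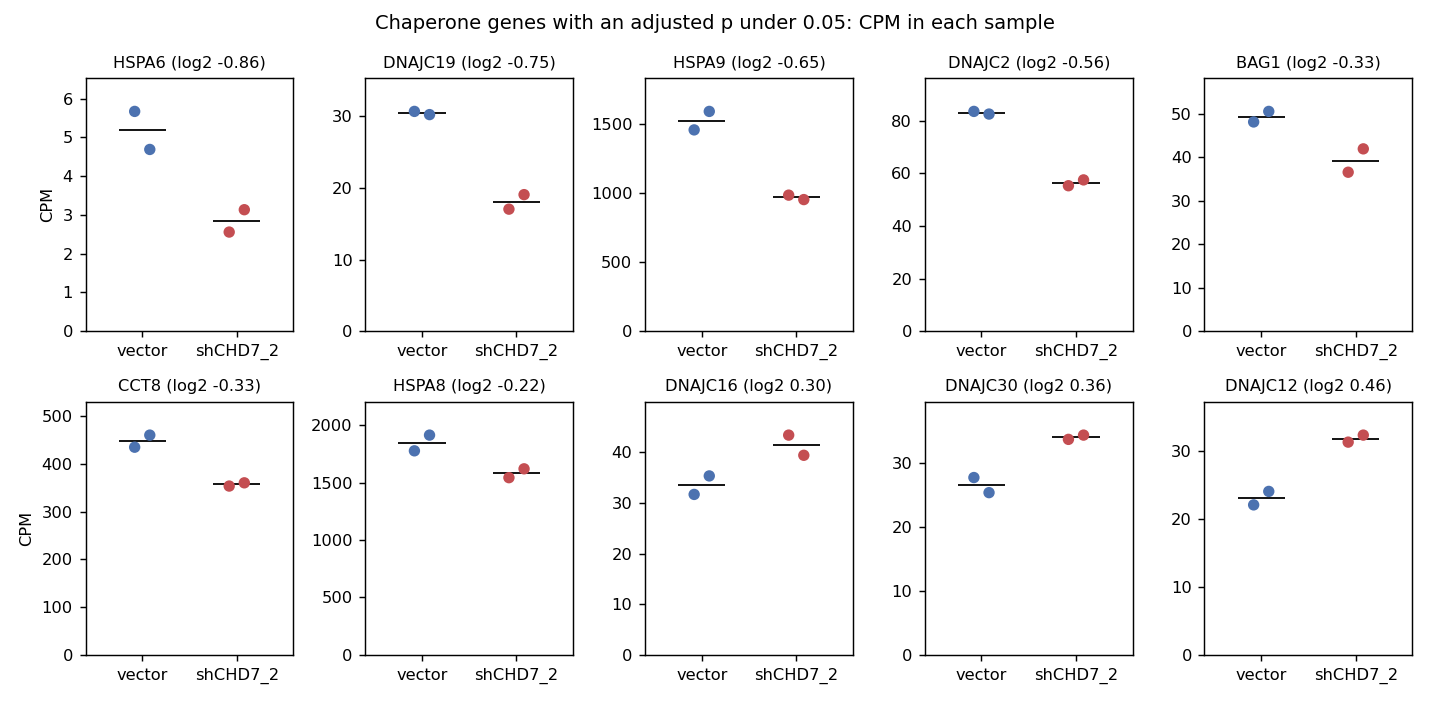
CPM in each of the 4 samples (points; lines are group means; y axes from 0) for the 10 chaperone genes with an adjusted p under 0.05. In each panel the 2 shCHD7_2 samples lie on one side of the 2 vector samples, 7 lower and 3 higher. The genes were chosen by this same comparison, and the groups did not overlap in 53.7% of all genes tested.

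J proteins were the largest class, with 35 of 36 genes tested and a median log2 fold change of 0.039. By adjusted p 2 were lower and 3 higher, beside 6.54% and 4.94% of all genes tested. DNAJC2, also called MPP11 or zuotin, works with HSPA14 and HSPA8 on chains leaving the ribosome. It fell from 83.5 and 82.5 CPM in the vector samples to 55.3 and 57.5 in the shCHD7_2 samples, with samples within a group less than 3 CPM apart. At 1.47-fold lower (log2 fold change -0.56, SE 0.085, adjusted p = 9.6e-05) it missed only the fold threshold. Without shCHD7_2 replicate 2 DNAJC2 was called (log2 fold change -0.59). Its ribosomal partner HSPA14 was at 84.3 and 85.1 against 82.7 and 85.9 CPM (-0.0072).

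The 3 J proteins that were higher by adjusted p, DNAJC12, DNAJC16 and DNAJC30, moved by less than 1.5-fold. DNAJC12, a J protein that assists the aromatic amino acid hydroxylases, had 22.0 and 24.0 CPM in the vector samples and 31.2 and 32.3 in the shCHD7_2 samples (log2 fold change 0.46, SE 0.10, adjusted p = 0.0034), and it did not pass without vector replicate 1 (0.40, adjusted p = 0.064). DNAJC16 was at 31.7 and 35.3 against 43.4 and 39.4 CPM (0.30, adjusted p = 0.044) and lost its adjusted p without vector replicate 1 (0.36), vector replicate 2 (0.082) or shCHD7_2 replicate 1 (0.19). DNAJC28 had the highest log2 fold change of the class, 0.93, on 17 and 20 counts in the vector samples against 27 and 45 (adjusted p = 0.066), and it was called without shCHD7_2 replicate 1 (1.25, adjusted p = 0.013).

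Among the BAG proteins, several of which release ADP from HSP70, 1 of 6 passed the adjusted p, beside 11.5% of all genes tested. BAG1, which links HSP70 to the proteasome, was at 48.2 and 50.6 CPM in the vector samples and 36.6 and 42.0 in the shCHD7_2 samples (log2 fold change -0.33, SE 0.094, adjusted p = 0.024). It did not pass without vector replicate 1 (adjusted p = 0.062), vector replicate 2 (0.22) or shCHD7_2 replicate 1 (0.15), nor in DESeq2 (0.10). BAG4 and BAG5 were at 0.21 and 0.25 (adjusted p = 0.15 and 0.075, the latter 0.041 without shCHD7_2 replicate 1 and 0.033 with library totals), with both knockdown samples above both control samples, and BAG2 and BAG6 at -0.036 and -0.019 (0.0081 and 0.024 with library totals). HSPE1-MOB4, a read-through of HSPE1 into its neighbour that shares exons with it, had 26 and 18 counts against 6 and 20 (log2 fold change -0.78, adjusted p = 0.26; -1.89 and 0.030 without shCHD7_2 replicate 2), and its reads cannot be separated with certainty from those of HSPE1.

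HSPB11 was at 0.080, HSPBP1, an exchange factor of HSP70, at -0.0096 (0.034 with library totals) and HSPBAP1 at -0.20, none past the adjusted p.

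Of the endoplasmic reticulum genes left out of the set, HSPA5, HSP90B1, DNAJC3, DNAJC10 and DNAJB11 did not pass the adjusted p. Their log2 fold changes ran from -0.029 to 0.17. DNAJB9, a J protein of that compartment that was also left out, fell by 0.60 (adjusted p = 3.1e-04).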

How the data were processed

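RNA-seq was measured in 4 samples of RKO cells, grouped by the sample titles. Per the labels, RNA was captured with oligo-dT beads, and the submitters' processing notes name Bowtie2, RSEM, DESeq2 and the build hg38 without versions or roles; annotation and strandedness are not given in the sources used here, so overlapping antisense transcripts cannot be separated. The authors deposited expected counts (estimated counts, 13.6% to 14.7% of values per sample not whole, not normalized) and FPKM for 15357 genes. Both tables list the same genes, and all columns were assigned to a sample by name. The deposited estimated counts summed to 15734679, 16068650, 15749624 and 15771482.

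Counts were rounded and, in R 4.3.3 with edgeR 4.0.16, filtered with filterByExpr, scaled by TMM and tested with the quasi-likelihood test on all 11955 genes that passed, with two-sided p-values and Benjamini-Hochberg adjustment; standard errors come from the F statistic. The exact two-sided permutation test has a lowest possible p of 0.333 at 2 per group, so none is given. DESeq2 1.42.0 and limma 3.58.1 on log2(FPKM + 1) or log2(FPKM + 0.1) were alternatives. On simulated counts for this comparison, edgeR recovered 94.4% of 197 changed genes (all by a log2 change of 1 in size) with 4 wrong calls among 11924 genes. Every gene was simulated with the same biological coefficient of variation, 0.0579. The recovery of smaller changes, and of genes that vary more, was not measured.

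The genes named are those past the adjusted p of 0.05, a list of main chaperones, and the highest and lowest of each class; the motor list and the untested genes were added later. Members and lists were chosen with earlier results of these data known. The computation also used Python 3.11.15.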

Additional observations from a re-analysis of the deposited data

How the results depend on the processing

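The number of chaperone genes called was 3 in the fit as reported, and it stayed between 2 and 4 with DESeq2's size factors, library totals, DESeq2, the replicate block, the other filters on counts and limma on FPKM of genes with a mean of at least 1. It was 10 without a fold threshold and 0 with limma on log2(FPKM + 1) without a filter on low values, where 21 of 78 genes had an unadjusted p under 0.05 and 8 of all 15357 genes were called. Over the fits that left out one sample it ran from 2 to 5; each leaves a lone sample that is assumed to vary like the other group. HSPA9 and DNAJC19 were called in 13 of 14 alternatives each, the exception being the unfiltered FPKM fit (adjusted p of 0.11 for both from limma). By adjusted p alone, 10 genes passed as reported, 6 in DESeq2, 3 in edgeR with no minimum on counts and 28 with a crossed pairing. It was 5 lower and 4 higher with limma on filtered FPKM. Over all genes 344 were called as reported, 221 in DESeq2, 141 with no minimum on counts and 172 with limma on log2(FPKM + 1).

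Replicate numbers are shared between the groups, but the departures of samples with one number from the mean of their group correlated at -0.252 over the 11955 genes, which are not independent, so the numbers were not taken to pair the samples. With the replicate number as a block (replicate block), 3 chaperone genes were called and 6 passed the adjusted p alone, and the median log2 fold change was -0.015. With the pairing crossed, an alternative chosen after seeing the data, 4 were called.

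The median log2 fold change of the chaperone genes, -0.012, was 0.032 with library totals, 0.052 with log2(FPKM + 1), 0.055 with log2(FPKM + 0.1) and 0.036 with log2(FPKM + 1) unfiltered; the median of all genes moved with it, to between 0.021 and 0.045. It ran from -0.022 to 0.012 over the fits without one sample. Genes near no change turned direction without passing the adjusted p. With library totals these were BAG2 at 0.0081, BAG6 at 0.024, CCT6A at 0.025, DNAJB6 at 0.014, HSF1 at 0.015 and HSPBP1 at 0.034. With log2(FPKM + 1), filtered or not, BAG2 was at 0.0084, BAG6 at 0.019, CCT6A at 0.023, DNAJB6 at 0.068 and HSPBP1 at 0.037, and with log2(FPKM + 0.1) they were at 0.0086, 0.019, 0.023, 0.069 and 0.039. Over the fits without one sample, these log2 fold changes took both signs: BAG6 from -0.10 to 0.055, CCT5 from -0.11 to 0.017, DNAJB6 from -0.099 to 0.040, HSF1 from -0.15 to 0.11, HSF2 from -0.29 to 0.0052, HSP90AA1 from -0.024 to 0.12, HSPA1A from -0.33 to 0.10, HSPB1 from -0.051 to 0.28, HSPBP1 from -0.17 to 0.13 and HSPD1 from -0.022 to 0.13. The cause was not tested. HSPA6 had 41 to 88 counts per sample, and the part of depth in its lost calls was not tested.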
